A study of Camelus dromedarius with 30 samples.

Results

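The kidney medulla of rehydrated dromedaries (*Camelus dromedarius*, the one-humped Arabian camel) was compared with that of control dromedaries. The labels for tissue and treatment choose 10 of the 30 libraries of the series, 5 from rehydrated and 5 from control camels. All camels were males of 4–5 years by the labels. The control camels always had water. The rehydrated camels went without water for 20 days, with food at will, and then drank at will for 3 days. The medulla of 5 camels taken at the end of 20 days without water (dehydrated) is used beside them, since a gene can then be placed as different from control before or only after water returned. Every gene that passed a filter on low counts was examined, which was 15376 of the 22444 genes in the deposited table. Each library came from poly(A)-selected RNA of a powdered piece of frozen medulla from 1 camel, so each group measures 5 animals at a single time point and no animal was followed over time.

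The medulla holds the loops of Henle, the collecting ducts and the vasa recta. Its cells maintain a gradient of salt and urea that lets water be drawn from the urine when vasopressin places the water channel AQP2 in the collecting duct membrane, and they hold organic osmolytes and chaperones against the high salt around them. When an animal drinks after a long thirst, the urine is diluted and that environment changes within days. The question put to the data was which transcripts stood apart from control at that stage.

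The libraries of the compared groups held 16799212 to 20005136 counted read pairs in control and 15780491 to 19956060 in rehydrated camels, and at least 99.9% of each lay on tested genes. Levels are given in CPM, the count of a gene relative to the TMM-scaled total of its library. UMOD, the marker of the thick ascending limb, came to 14296–19801 CPM in control and 11959–20959 CPM in rehydrated medulla, against a median of 3499 CPM in control cortex. The 2 proximal tubule markers that carried a symbol (SLC22A8 and SLC17A3, of 8 listed) summed to 7.20–157 CPM in control and 23.9–71.9 CPM in rehydrated medulla, against a median of 1697 CPM in control cortex. None of the markers with a symbol, of any cell type, passed the test between rehydrated and control medulla, and none of the markers of leukocytes or urothelium had a symbol, so these cells could not be checked. Other types had few: 1 of 4 for the thick ascending limb and 1 of 5 each for intercalated cells and podocytes. The podocyte marker, SYNPO, had a median of 9.22 CPM in control medulla and 1.74 CPM in control cortex, so it was not read as a measure of podocytes. At an unadjusted p under 0.05 (edgeR), VWF, AQP2 and SYNPO were higher (0.70, 0.54 and 0.76, log2) and HBB lower (-1.90). Other markers of the same cell types did not reach that p. PECAM1 and CDH5, listed with VWF for endothelium, were at -0.01 and 0.05. AQP3, listed with AQP2 for principal cells of the collecting duct, was at 0.20. An unchanged cell composition was therefore not shown. In bulk tissue, fewer cells of a type and less RNA per cell cannot be told apart. Rehydrated library 3 stood apart from the others: its median absolute distance to its own group was 0.54 on the log2 scale, against 0.21–0.38 for the other medulla libraries. It also had the fewest genes with a count, 16521 against 16897–17514 in the other medulla libraries. Its RNA integrity number was 8, against 8.6–9 in the other rehydrated medulla libraries, and control library 3 was also at 8. What set the library apart was not tested. The counts of genes that passed, over all genes and in the gene lists, are therefore also given without rehydrated library 3.

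Between rehydrated and control medulla, 125 of the 15376 genes differed (0.813% of the genes tested; edgeR's quasi-likelihood test, Benjamini-Hochberg adjusted p under 0.05), and these are called DEGs. Of them 94 were higher (0.611%) and 31 lower (0.202%) after rehydration. A symbol was known for 80 of the 125. In 72 of the DEGs the 5 rehydrated values did not overlap the 5 control values, 54 of them higher and 18 lower, and over all genes tested 429 (2.79%) were so separated, 280 higher (1.82%) and 149 lower (0.969%). The DEGs were chosen on these same values, so their larger share follows from the choice. Without rehydrated library 3 the count was 104, with 62 higher and 42 lower. The count moved by more than 1.5 times when other single libraries were left out: it was 10 without control 1, 195 without control 2, 14 without control 3, 69 without control 4 and 25 without control 5, 81 without dehydrated 5, 17 without rehydrated 1, 380 without rehydrated 4 and 33 without rehydrated 5. DESeq2 called 291 genes, 176 higher and 115 lower, and 102 of these were among the 125. When only the 10 libraries compared entered the edgeR fit, 0 genes passed. In that fit 2055 genes had an unadjusted p under 0.05, against 2264 (14.7%) in the fit of all libraries. The DEGs thus depend on which libraries enter the fit, and their spread was estimated over all 30. Genes nearest the threshold had adjusted p = 0.0495 inside it and 0.0508 (DGCR8) outside it.

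**Figure D1:**
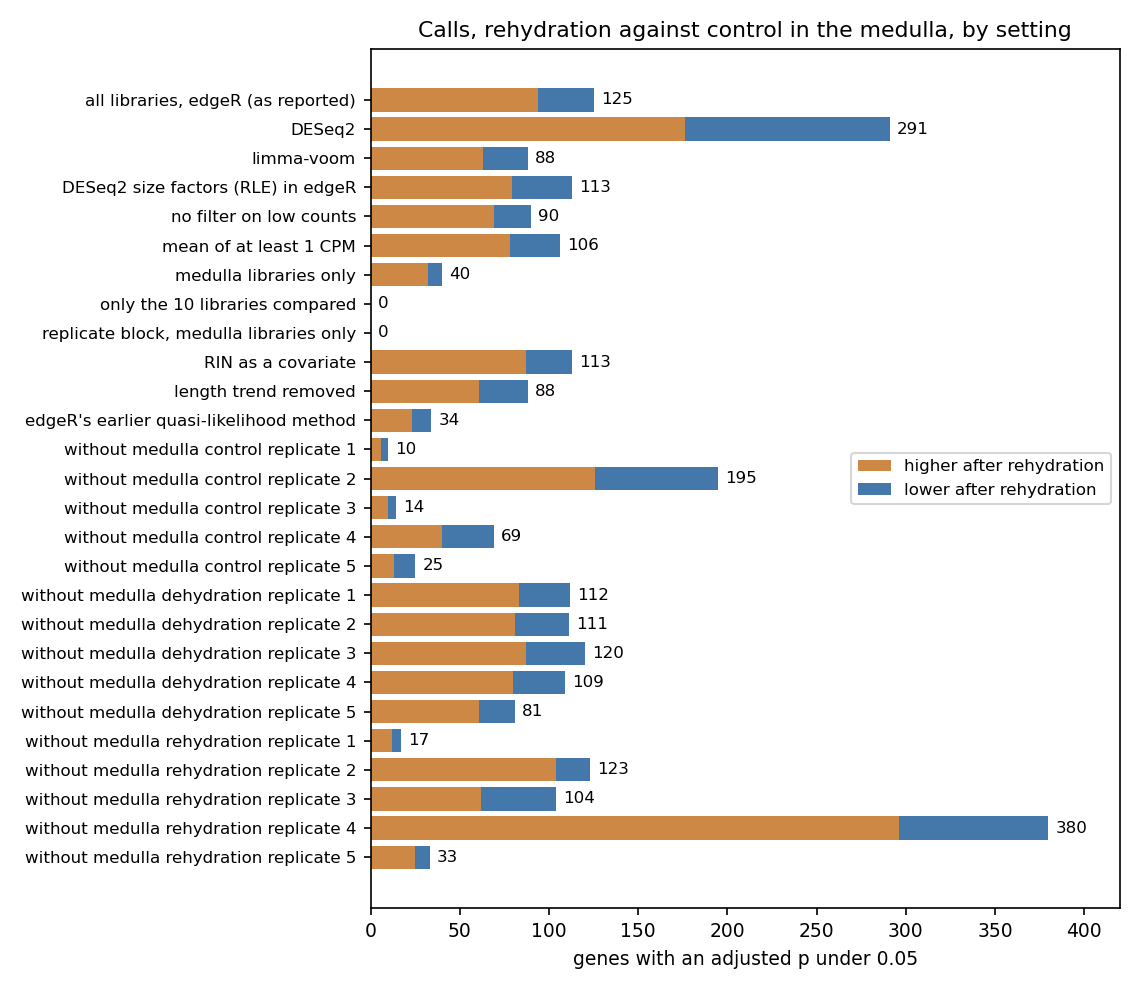
The number of genes with an adjusted p under 0.05 between rehydrated and control medulla (horizontal axis), under each processing setting and with each medulla library left out (vertical axis), split into genes higher (orange) and lower (blue) after rehydration. The bars run from 0 in the fit of the 10 libraries alone and in the fit with the replicate number as a block to 380 without rehydrated library 4.

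Most DEGs had not passed the test before water returned. Dehydrated against control medulla gave 259 DEGs (1.68%), 19 of which were also among the 125. The other 106 DEGs passed after rehydration only, 84 of them higher and 22 lower than control. Of these, 51 also differed between rehydrated and dehydrated medulla (46 higher and 5 lower after rehydration; 565 genes, 3.67%, passed that comparison over all genes tested), and 55 did not. In 26 of the 51 the rehydrated values did not overlap the dehydrated values, as in 4.75% of all genes tested. The 51 were chosen by that comparison, so their separation describes the choice and is not support for it. The comparison also uses the same rehydrated libraries that chose the 106, so the share of 51 is not independent of the first test. Failing the test in the dehydrated camels does not show that a gene was at its control level there, and for those 55 genes the rehydrated and dehydrated levels were not shown to differ. Both comparisons use the same control libraries. The counts of 19, 106 and 51 also moved with single libraries. The 19 became 4, 4 and 10 without control 1, 3 and 5, 6 without rehydrated 1, 35 without rehydrated 4 and 8 without rehydrated 5, and 16 without rehydrated 3. The 106 became 6, 177, 10, 50 and 15 without control 1, 2, 3, 4 and 5, 68 without dehydrated 5, 11 without rehydrated 1, 345 without rehydrated 4 and 25 without rehydrated 5, and 88 without rehydrated 3. The 51 became 3, 6, 21 and 7 without control 1, 3, 4 and 5, 33, 32, 28, 25 and 27 without dehydrated 1 to 5, 3 without rehydrated 1, 163 without rehydrated 4 and 13 without rehydrated 5, and 44 without rehydrated 3.

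As a description of the genes so chosen, the 84 higher after rehydration only had a median log2 fold change of 1.20 against control, and their median in dehydrated camels was 0.24. The 46 that also differed from the dehydrated camels had medians of 1.41 and 0.07. The 22 lower after rehydration only had medians of -0.92 after rehydration and -0.38 in dehydrated camels. Taken library by library, the median of the 84 genes above the control mean was 1.51, 0.79, 1.28, 0.55 and 1.38 (log2) in rehydrated camels 1 to 5, so camel 4 lay nearest to control. The median gene lengths (summed exons) were 2213.5 bases over all genes tested, 2289 for DEGs that were higher and 2464 for those that were lower. The higher DEGs after rehydration only were split by length. The median was 1584 bases for the 46 that also differed from the dehydrated camels and 3230.5 bases for the 38 that did not. A link between length and the calls was not tested.

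**Figure D2:**
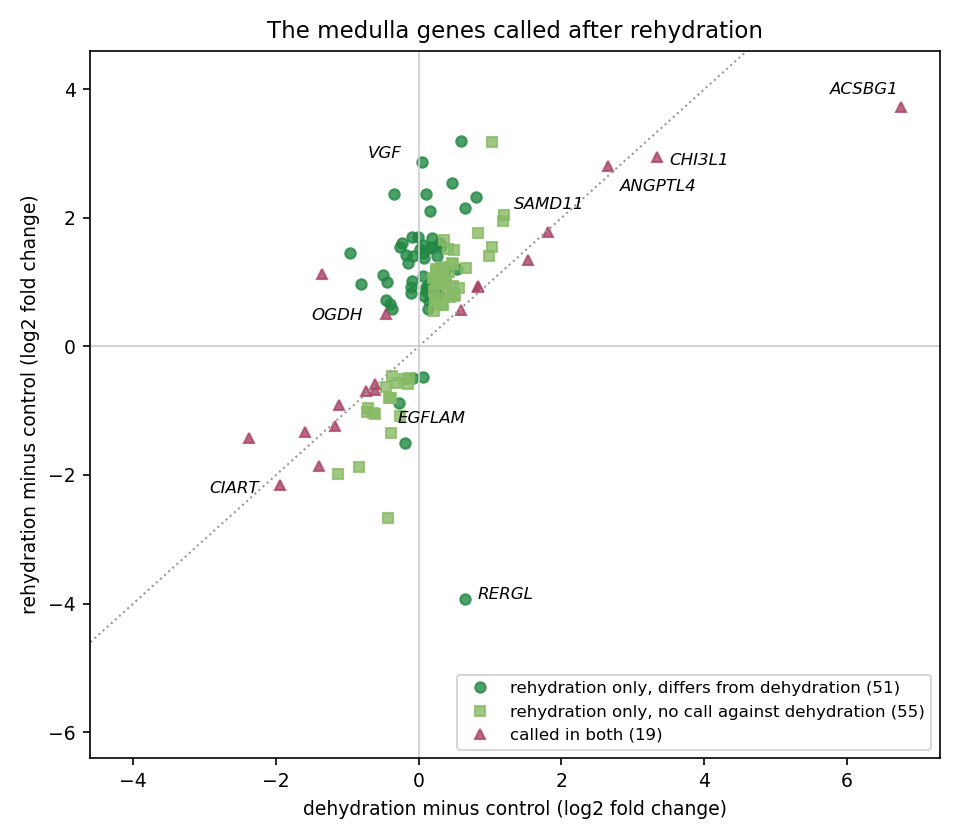
The 125 genes that differed between rehydrated and control medulla, with the log2 fold change of dehydrated against control medulla (horizontal axis) and of rehydrated against control medulla (vertical axis), both against the same control libraries. Dark green circles (51) differed after rehydration only and from dehydration, light green squares (55) after rehydration only, and triangles (19) in both, and the dotted line marks equal values, with ACSBG1 below it at 6.76 and 3.73.

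TUBB6 was among the genes that passed after rehydration only. This gene (chromosome 24, 24040196 to 24046544 of CamDro2) encodes a beta-tubulin, a subunit of microtubules. Its level was 19.5, 24.9, 23.8, 17.5 and 13.3 CPM in control camels 1 to 5, 24.6, 20.5, 21.9, 13.5 and 23.9 CPM in dehydrated camels, and 52.3, 40.0, 74.0, 33.99 and 55.9 CPM in rehydrated camels. All rehydrated values lay above all others, while the control and dehydrated values overlapped throughout. The log2 fold change against control was 1.37 (SE 0.28, adjusted p = 0.0217) after rehydration and 0.08 (adjusted p = 0.943) in dehydration, and rehydrated exceeded dehydrated camels by 1.29 (adjusted p = 0.00998).

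Because TUBB6 is 1 of a family, the other genes whose symbol starts with TUB were also read, a choice made after their values had been seen. TUBB4B (chromosome 4, 615199 to 617861), a beta-tubulin found in most tissues, was at 91.6, 109, 102, 109 and 61.5 CPM in control and 169, 185, 252, 175 and 230.0 CPM in rehydrated camels (log2 fold change 1.09, SE 0.22, adjusted p = 0.0217). TUBB2B (chromosome 20, 1877749 to 1882103), another beta-tubulin, was at 123, 153, 119, 155 and 75.9 CPM in control and 288, 215, 303, 193 and 256 CPM in rehydrated camels (log2 fold change 1.01, SE 0.23, adjusted p = 0.0379). Neither gene's rehydrated values overlapped the control or the dehydrated ones. TUBGCP6, a component of the gamma-tubulin ring complex that seeds microtubules, was higher by 1.00 (SE 0.24, adjusted p = 0.0412). The 5 other such genes tested, TUBA4A, TUBG1, TUBB1, TUBB4A and TUBAL3, did not pass, with log2 fold changes of 0.23, 0.37, -0.48, 1.37 and 0.36. Thus 4 of 9 passed, all higher, against 0.611% of all genes tested, but genes with a symbol were likelier to have changed (below), so that share is not independent evidence. Of the 15 fits that each left out 1 medulla library, 4 lost TUBB4B and 4 lost TUBB6, and 6 lost TUBB2B and 8 lost TUBGCP6, with adjusted p of up to 0.133. Controls 1, 3 and 5 were among the libraries whose omission lost all 4 genes, and leaving out rehydrated library 3 lost TUBB2B alone of the 4. Beta-tubulin genes resemble each other closely, and the counting options in the file header do not add read pairs marked as mapping to several places, so the split of reads among these genes is uncertain.

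**Figure D3:**
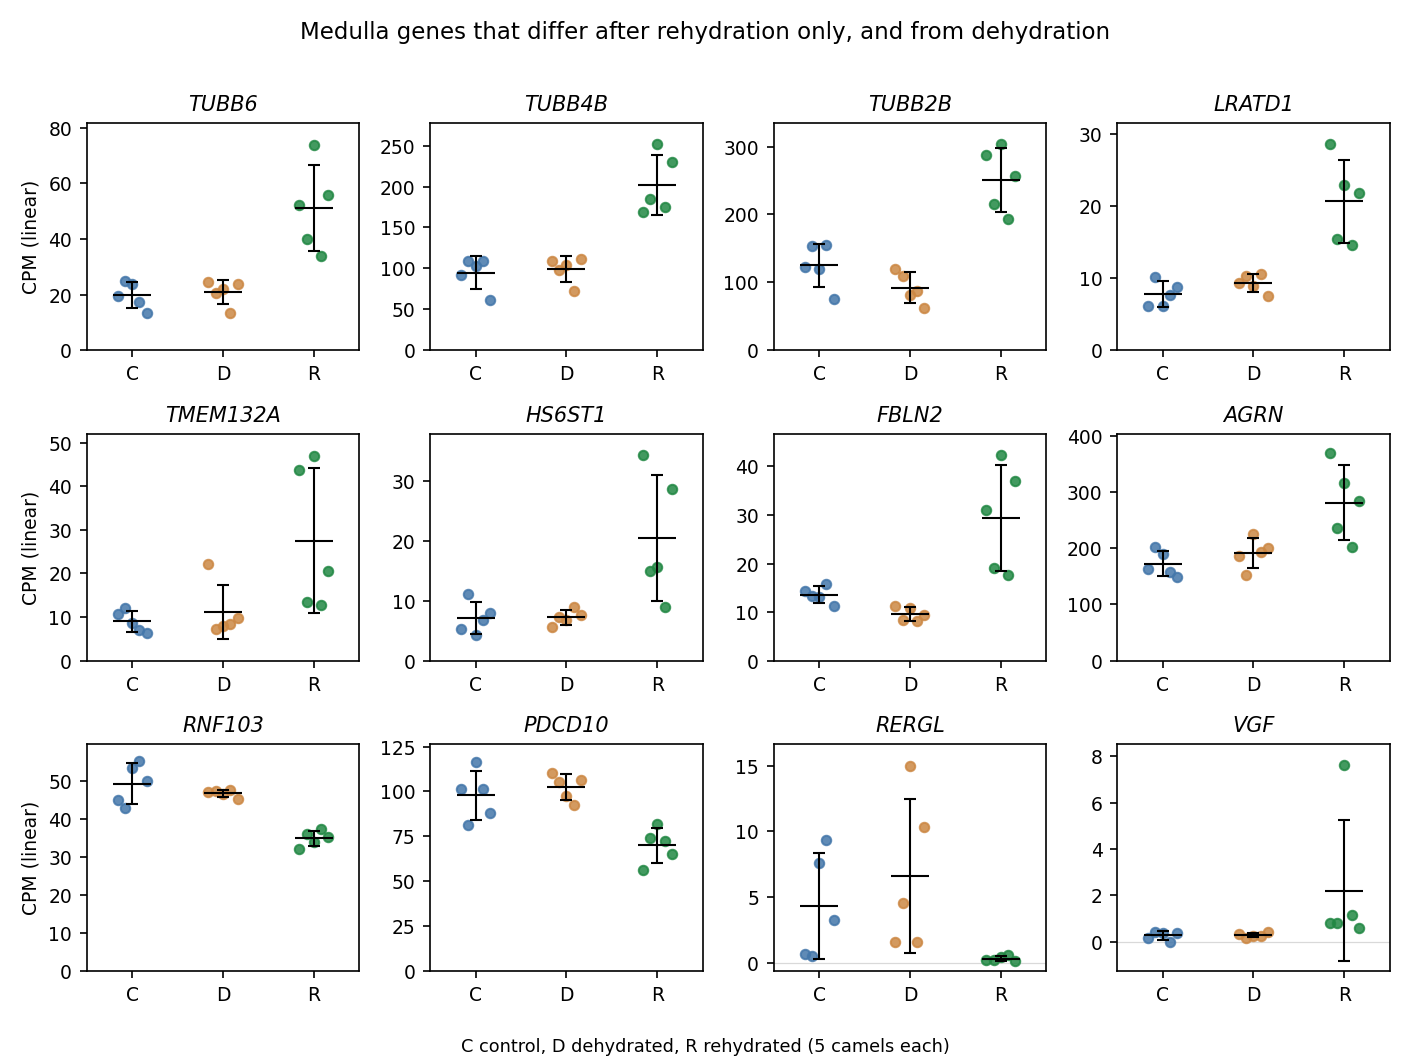
CPM on a linear scale (vertical axis, starting at 0 except where an error bar crosses it) in control (C), dehydrated (D) and rehydrated (R) medulla for 12 genes that differed from control only after rehydration and also from dehydration. Points are camels, horizontal bars means and vertical bars 1 SD (n = 5). In TUBB6, TUBB4B, TUBB2B, LRATD1, FBLN2 and VGF every rehydrated point lies above every other point, while in RNF103 every rehydrated point lies below.

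HS6ST1, AGRN and FBLN2 were likewise higher after rehydration only and differed from the dehydrated camels. HS6ST1 (chromosome 5, 2673878 to 2711554), which adds 6-O-sulfate to heparan sulfate chains, was at 5.35, 11.2, 4.34, 6.76 and 7.93 CPM in control and 34.3, 15.0, 15.6, 8.99 and 28.7 CPM in rehydrated camels. Only rehydrated camel 4 fell within the control range. Its log2 fold change was 1.52 (SE 0.33, adjusted p = 0.03) after rehydration and 0.02 in dehydration. AGRN (chromosome 13, 275075 to 295082) encodes agrin, a heparan sulfate proteoglycan of basement membranes, and was at 164, 202, 191, 157 and 149 CPM in control and 370.1, 235, 316, 201 and 284 CPM in rehydrated camels. Here too camel 4 lay within the control range, and the log2 fold change was 0.71 (SE 0.16, adjusted p = 0.0375) after rehydration and 0.15 in dehydration. FBLN2 (chromosome 17, 48470359 to 48514898), fibulin-2 of the extracellular matrix, was at 14.4, 13.4, 13.1, 15.8 and 11.3 CPM in control, 11.3, 8.27, 10.9, 8.25 and 9.36 CPM in dehydrated and 31.1, 19.0, 42.4, 17.6 and 37.1 CPM in rehydrated camels. The rehydrated values lay above all others, by 1.11 (SE 0.24, adjusted p = 0.0302) against control and by 1.61 (adjusted p = 0.000394) against dehydrated camels. Without rehydrated library 3, FBLN2 and AGRN no longer passed.

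Other genes in this class with a symbol covered several functions. LRATD1 (chromosome 15, 9518967 to 9519845), named for its LRAT domain, was at 6.12–10.2 CPM in control, 7.51–10.6 CPM in dehydrated and 14.6–28.6 CPM in rehydrated camels, without overlap (log2 fold change 1.40, SE 0.31, adjusted p = 0.0334). TMEM132A, a transmembrane protein gene, was at 6.43–12.1 CPM in control and at 43.6, 13.4, 47.0, 12.8 and 20.6 CPM in rehydrated camels (log2 fold change 1.605, SE 0.34, adjusted p = 0.03). Its 5 rehydrated values cleared the control range, but camels 2 and 4 only narrowly, and dehydrated camel 1 was at 22.1 CPM. RNF207, which encodes a RING finger protein, had a mean of 2.32 ± 0.746 CPM (SD, n = 5) in control and 6.38 ± 3.36 CPM in rehydrated camels (log2 fold change 1.45, SE 0.34, adjusted p = 0.0379), and its groups overlapped. VGF encodes a precursor of secreted peptides. It was at 0.143, 0.411, 0.390, 0 and 0.376 CPM in control and 0.810, 0.820, 7.63, 1.14 and 0.595 CPM in rehydrated camels, without overlap. Its log2 fold change of 2.87 (SE 0.68, adjusted p = 0.0375) fell to 1.59 (adjusted p = 0.186) without rehydrated library 3. The symbol-less gene ENSCDRG00005018402, named here after its values were seen, was at 13.9–34.4 CPM in control, 15.1–26.4 CPM in dehydrated and 45.7–75.0 CPM in rehydrated camels (log2 fold change 1.42, SE 0.21, adjusted p = 0.00178).

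Fewer genes were lower after rehydration only and also lower than in the dehydrated camels. RNF103 (chromosome 28, 9989033 to 10036667), a ubiquitin ligase of the endoplasmic reticulum membrane, was at 44.9, 42.9, 53.4, 55.2 and 50.1 CPM in control, 47.1, 47.3, 46.4, 47.7 and 45.4 CPM in dehydrated and 32.003, 35.9, 33.9, 37.3 and 35.4 CPM in rehydrated camels. The rehydrated values lay below all others, by a log2 fold change of -0.50 against control (SE 0.11, adjusted p = 0.03). PDCD10, an adapter protein known from cerebral cavernous malformation, was at 81.4–116 CPM in control, 92.5–110.4 CPM in dehydrated and 56.3–81.9 CPM in rehydrated camels (log2 fold change -0.48, SE 0.11, adjusted p = 0.0407). Only rehydrated camel 3 reached the control range. RERGL, a relative of the small GTPase RERG, had the largest fall of the DEGs, with a log2 fold change of -3.93 (SE 0.95, adjusted p = 0.0417). It was at 0.669, 0.535, 7.62, 9.37 and 3.21 CPM in control and 0.170, 0.195, 0.424, 0.541 and 0.119 CPM in rehydrated camels, so control camels 1 and 2 lay close to the rehydrated ones and the groups overlapped. The summed markers of fibroblasts and mural cells (COL1A1, COL3A1, PDGFRB and ACTA2, 4 of 6 listed) were at 344–717 CPM in control and 327–721 CPM in rehydrated medulla.

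OGDH was the DEG with a symbol that passed in opposite directions before and after water returned. It encodes the first subunit of the 2-oxoglutarate dehydrogenase complex of the tricarboxylic acid cycle (chromosome 7, 1130574 to 1204569). Its level was 183, 235, 202, 218 and 213 CPM in control, 144, 157, 163, 145 and 155 CPM in dehydrated and 344, 349, 272, 253 and 274 CPM in rehydrated camels. The 3 groups did not overlap, with the dehydrated camels lowest and the rehydrated camels highest. The log2 fold change against control was -0.46 (adjusted p = 0.0489) in dehydration and 0.50 (SE 0.12, adjusted p = 0.0447) after rehydration, and rehydrated exceeded dehydrated camels by 0.96 (adjusted p = 3.2e-05). Of the 12 tested genes listed for the tricarboxylic acid cycle, OGDH alone passed, and 10 had a negative log2 fold change after rehydration (median -0.17). The highest value of the list, 0.57, belonged to another gene. With DESeq2, IDH3A was called higher beside OGDH and IDH3G lower, and limma-voom called IDH3A and not OGDH. One gene without a symbol, ENSCDRG00005022079, showed the same order, with means of 6.56 ± 0.637 CPM in control, 2.58 ± 0.914 CPM in dehydrated and 14.3 ± 2.57 CPM in rehydrated camels (SD, n = 5), and rehydrated exceeded dehydrated camels by 2.47 (log2, adjusted p = 9.3e-06).

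A second set of DEGs, 17 genes, already differed in the dehydrated camels and had the same direction after 3 days of water. ACSBG1 (chromosome 27, 21749381 to 21796517), an acyl-CoA synthetase that activates long-chain fatty acids, had the largest rise among them. It was at 0.574, 0.411, 0.223, 0.197 and 0.167 CPM in control, 83.1, 23.7, 12.8, 39.3 and 15.9 CPM in dehydrated and 4.94, 1.13, 9.38, 3.36 and 3.21 CPM in rehydrated camels. Rehydrated values lay between the other groups without overlap, 3.73 (log2, SE 0.59, adjusted p = 0.00178) above control and, with a log2 fold change of -3.02, below dehydration (adjusted p = 1e-05). CHI3L1 (chromosome 23, 34095899 to 34103494), a secreted chitinase-like glycoprotein, was at 12.3, 11.0, 13.6, 3.26 and 7.68 CPM in control and 78.5, 42.6, 121, 30.9 and 96.7 CPM in rehydrated camels (log2 fold change 2.95, SE 0.54, adjusted p = 0.0125), and its mean in dehydrated camels was 96.6 ± 72.7 CPM (SD, n = 5). The rehydrated camels all exceeded the control camels and overlapped the dehydrated ones. ANGPTL4, a secreted inhibitor of lipoprotein lipase, split the rehydrated camels. It was at 12.4, 154, 225, 25.5 and 80.2 CPM there and at 2.92–26.1 CPM in control, so camels 1 and 4 lay within the control range (log2 fold change 2.80, SE 0.55, adjusted p = 0.0215).

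Among the genes lower in both comparisons, CIART and USP2 are clock genes. CIART (chromosome 21, 4836835 to 4840879), a repressor of the CLOCK and BMAL1 transcription factors, was at 6.69, 7.57, 5.68, 3.01 and 7.68 CPM in control and 2.22, 1.05, 1.09, 1.41 and 1.11 CPM in rehydrated camels. The groups did not overlap, and the log2 fold change was -2.15 (SE 0.34, adjusted p = 0.00178) after rehydration and -1.95 in dehydration. USP2, a deubiquitinase with a daily rhythm, was at 36.6–61.3 CPM in control and at 22.8, 22.0, 25.8, 39.9 and 23.7 CPM in rehydrated camels (log2 fold change -0.92, SE 0.22, adjusted p = 0.0447). Rehydrated camel 4 alone lay in the control range. DBP, the third clock gene with a symbol, did not pass, at -0.60 (adjusted p = 0.334). IL1B, the interleukin-1 beta cytokine, had a mean of 11.5 ± 5.13 CPM in control and 4.58 ± 1.64 CPM in rehydrated camels (SD, n = 5; log2 fold change -1.34, adjusted p = 0.0447). BGN, the matrix proteoglycan biglycan, had means of 287 ± 51.8 and 177 ± 21.9 CPM (log2 fold change -0.70, adjusted p = 0.03), and DPYSL2, which binds tubulin, had means of 102 ± 8.27 and 63.3 ± 11.2 CPM (log2 fold change -0.68, adjusted p = 0.0217). IL1B, BGN and DPYSL2 each had control values that lay wholly above the rehydrated ones. The remaining genes of this set with a symbol were PITPNM1, CPSF6, SLC45A3 and SAFB2, which were higher by 0.92, 0.94, 1.35 and 0.57.

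The genes that passed after rehydration and did not pass the test against the dehydrated camels included EGFLAM, CFAP46, SAMD11, PPIC and ANKRD37. EGFLAM (chromosome 3, 92229239 to 92390617) encodes pikachurin, a matrix protein. It was at 31.9, 26.8, 31.4, 28.8 and 25.9 CPM in control, 21.1, 20.1, 25.5, 22.5 and 18.9 CPM in dehydrated and 14.6, 14.8, 18.8, 17.4 and 17.3 CPM in rehydrated camels. The groups stepped down in that order without overlap, and the log2 fold change was -0.81 (SE 0.13, adjusted p = 0.00178) after rehydration and -0.42 (adjusted p = 0.0839) in dehydration, and the test between rehydrated and dehydrated camels gave -0.39 (adjusted p = 0.0776). CFAP46, a protein of the central apparatus of motile cilia, was at 0.813–1.32 CPM in control and at 5.88, 2.73, 5.14, 1.89 and 3.41 CPM in rehydrated camels (log2 fold change 1.77, SE 0.31, adjusted p = 0.00738). SAMD11 was higher by 2.04 (SE 0.46, adjusted p = 0.0375), with 1.17–3.11 CPM in control and 3.29–16.3 CPM in rehydrated camels. PPIC, the peptidyl-prolyl isomerase cyclophilin C, was lower, with 9.27–12.7 CPM in control and 4.64–6.05 CPM in rehydrated camels (log2 fold change -1.03, SE 0.21, adjusted p = 0.0242). ANKRD37, an ankyrin repeat protein, was at 15.0–27.2 CPM in control and 6.37–10.3 CPM in rehydrated camels (log2 fold change -1.35, SE 0.33, adjusted p = 0.0447). None of these 5 genes had overlapping control and rehydrated values. In dehydrated camels CFAP46, SAMD11, PPIC and ANKRD37 were at 0.83, 1.19, -0.72 and -0.39 (adjusted p = 0.231, 0.241, 0.076 and 0.647, edgeR). Every dehydrated value of CFAP46 exceeded its control values. All 55 genes of this class had the same sign in dehydration, as had 9672 of the 15376 tested. In that direction 22 of the 55 had an unadjusted p under 0.05 in dehydration (edgeR), against 1570 of all tested. The way the class was chosen favours this.

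Gene lists were read as counts and medians beside all genes tested, where 0.813% passed and the median log2 fold change was 0.01. Symbols were paired with 3654 gene identifiers, 1379 of them through the article's own lists of changed genes, so a gene that changed in these libraries was likelier to have a symbol and the shares of the lists are not independent evidence. In the Notch and Wnt list, 3 of 10 tested genes were higher and none lower, and the median was 0.75. NOTCH1 (chromosome 4, 3093637 to 3139631), a Notch receptor, was at 12.1, 23.6, 12.4, 14.2 and 21.3 CPM in control and 68.4, 28.6, 26.8, 22.9 and 44.1 CPM in rehydrated camels (log2 fold change 1.19, SE 0.29, adjusted p = 0.0473), with camel 4 within the control range. DVL1, the Dishevelled protein that relays Wnt signals, had means of 31.01 ± 6.78 CPM in control and 65.0 ± 24.6 CPM in rehydrated camels (log2 fold change 1.07, adjusted p = 0.0493). BCL9L, a co-activator of beta-catenin, was at 6.69–11.7 CPM in control and 13.3–20.5 CPM in rehydrated camels, without overlap (log2 fold change 0.97, adjusted p = 0.0379). NOTCH3, MIB2 and TCF3 had values of 0.53, 1.03 and 1.14 with adjusted p of 0.0906, 0.0878 and 0.0825. The 3 calls of this list became 2 without rehydrated library 3, 0 without control 1, 3, 4 or 5 or rehydrated 1 or 5, 1 without dehydrated 2 or 5, and 5 without rehydrated 4.

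The extracellular matrix list went both ways. Of its 21 tested genes, 2 were higher (FBLN2 and AGRN) and 3 lower (EGFLAM, BGN and FBLN5), and the median was -0.40. FBLN5, fibulin-5 of elastic fibres, was at 411, 283, 243, 273 and 223 CPM in control and 176, 166, 216, 184 and 182 CPM in rehydrated camels, without overlap (log2 fold change -0.63, SE 0.15, adjusted p = 0.0447). Without rehydrated library 3 the list had 0 higher and 5 lower genes. The 2 higher calls were also lost without control 1, 3 or 5 or rehydrated 1 or 5, 1 was lost without control 4, and 4 genes were higher without rehydrated 4. The 3 lower calls became 1 without control 1 or 3 or rehydrated 1, and 5 without rehydrated 4. In the list for branched-chain amino acid and fatty acid oxidation, 2 of 18 tested genes were lower and none higher, and 17 of the 18 had a negative log2 fold change (median -0.42, against -0.27 in dehydration). ECHS1, the short-chain enoyl-CoA hydratase, was at 944, 431, 676, 983 and 485 CPM in control and 184, 319, 321, 455 and 387 CPM in rehydrated camels (log2 fold change -1.08, SE 0.27, adjusted p = 0.0493). ETFA, which passes electrons from acyl-CoA dehydrogenases to the respiratory chain, had means of 288 ± 38.6 and 202 ± 25.1 CPM (log2 fold change -0.51, adjusted p = 0.0454). Both genes overlapped between groups. IVD and BCKDHB, enzymes of leucine and branched-chain keto acid breakdown, had values of -0.66 and -0.65 with adjusted p of 0.0613 and 0.0682. The count of 2 in this list became 0 without rehydrated library 3, and also without control 1, 3, 4 or 5, dehydrated 5 or rehydrated 1 or 5. It was 1 without dehydrated 1 or 2 or rehydrated 2, 4 without control 2 and 5 without rehydrated 4.

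In the inflammation and NF-kappaB list, 2 of 11 tested genes were higher (TRAF2 and CHI3L1) and 1 lower (IL1B), with a median of -0.05. TRAF2, an adapter of tumour necrosis factor receptors, was at 5.80–8.58 CPM in control and 8.77–17.7 CPM in rehydrated camels (log2 fold change 1.02, SE 0.24, adjusted p = 0.04). Without rehydrated library 3 this list had 1 higher gene (CHI3L1) and 3 lower (CXCR4, RGS1 and IL1B). The higher count was also 1 without control 1, 3 or 5 or rehydrated 1 or 5, and 4 without rehydrated 4, and the lower count was 0 without control 1, 2, 3 or 5, dehydrated 5 or rehydrated 1, 2 or 5, and 2 without control 4 or rehydrated 4. In the ribosome biogenesis list, 1 of 16 tested genes was higher. This was TCOF1, the nucleolar protein treacle, at 15.7–19.6 CPM in control and 25.1–36.1 CPM in rehydrated camels (log2 fold change 0.79, SE 0.19, adjusted p = 0.045), and 14 of the 16 had a positive value (median 0.16). TCOF1 was lost without rehydrated library 3, and 0 genes of the list passed also without control 1, 3, 4 or 5, dehydrated 5 or rehydrated 1, 2 or 5, while 4 passed without rehydrated 4. Of 33 chaperone and folding genes, PPIC alone passed, and the median was 0.03. PPIC was lost without control 1 or 3 or rehydrated 1 or 5, but not without rehydrated 3. None of the 20 genes of the lysosome, autophagy and mTORC1 list passed (median -0.29), but RHEB was lower without rehydrated library 3, and without rehydrated 4 the list had 2 higher and 4 lower genes.

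None of the 22 tested genes of sterol synthesis and uptake passed after rehydration, although all 22 were lower in the dehydrated camels (medulla DEGs lower in dehydration made up 1.16% of genes tested). Their median log2 fold change was -0.56 after rehydration and -1.76 in dehydration, and 21 of the 22 still had a negative value. INSIG1, a regulator of sterol synthesis, was the lowest at -0.84 (adjusted p = 0.108). FDFT1, squalene synthase, passed as lower without rehydrated library 3, and at most 2 genes of this list passed in any fit with 1 library left out. None of the 15 tested genes of water, urea and ion transport passed after rehydration (median 0.18). AQP2 was at 0.54 (adjusted p = 0.234) after rehydration and 0.81 in dehydration, and AQP3, the basolateral water channel, was at 0.20 and 1.37. SLC6A12, the betaine transporter, was at 0.71 (adjusted p = 0.325).

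**Figure D4:**
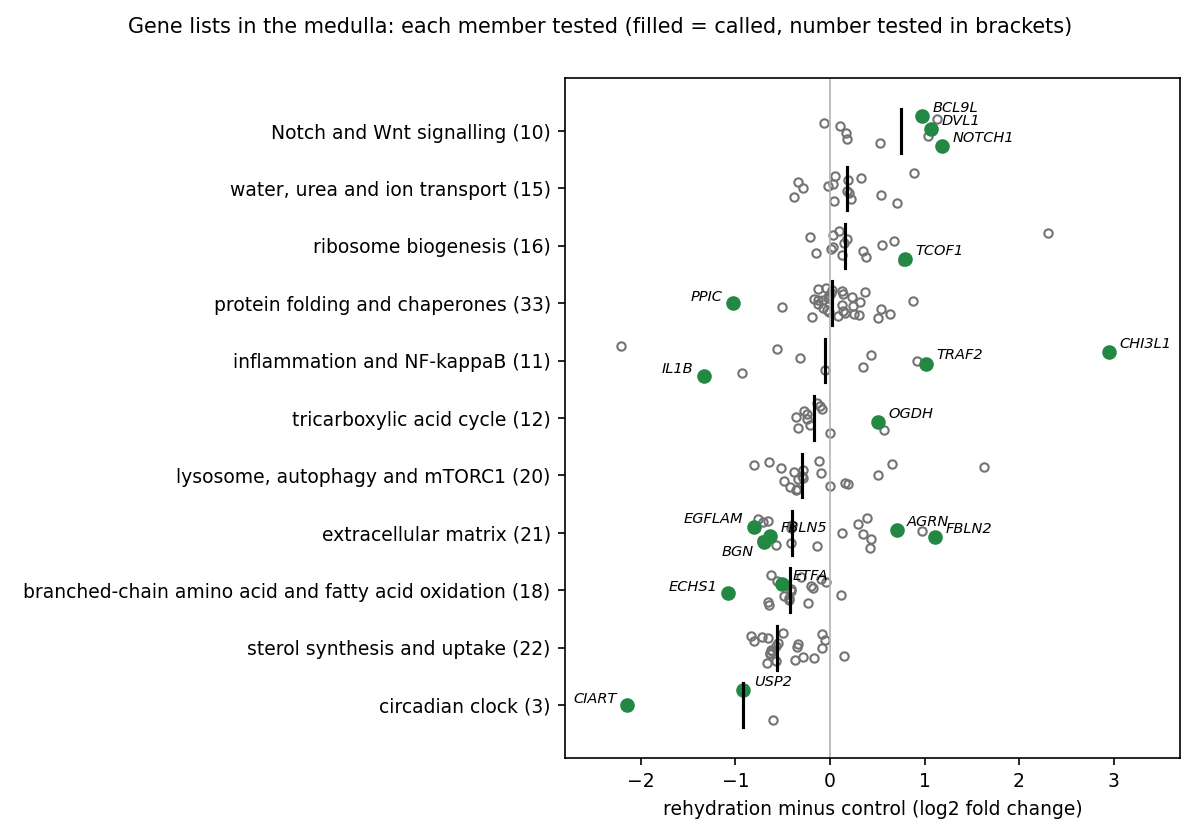
Log2 fold changes of rehydrated against control medulla (horizontal axis) for every tested member of 11 gene lists (vertical axis, number tested in brackets). Filled green points with a symbol passed at an adjusted p under 0.05, open points did not, and vertical black bars are medians, which run from -0.92 (circadian clock) to 0.75 (Notch and Wnt signalling).

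Cortex gave values for these genes in other libraries, which were not part of the medulla contrast but entered the same fit and its estimate of spread. The labels give the same individuals in both tissues, but the column names number the rehydrated cortex libraries 2 to 6 and the rehydrated medulla libraries 1 to 5, so whether these are the same camels is not settled. By the paper's methods both tissues came from the same 15 camels, and the fit treated the 30 libraries as independent. Differences between camels can thus recur in both tissues, and the cortex values are not an independent check. Rehydrated against control cortex gave 13 DEGs (0.0845%; 8 higher and 5 lower), and 1 of the 125 medulla DEGs was among them. This was LRATD1, with a log2 fold change of 2.90 in cortex and 1.40 in medulla. Of the 94 genes higher in rehydrated medulla, 83 had a positive value in cortex (median 0.48), and of the 31 lower genes 26 had a negative value (median -0.28), while over all genes tested 9536 of 15376 had the same sign in both tissues (median in cortex 0.02). An unadjusted p under 0.05 in cortex, in the direction seen in medulla, was found for 29 of the 94 and 11 of the 31 genes, and for 952 of all genes tested (1273, 8.28%, in either direction). No gene passed the test of a difference between the medullary and the cortical response (edgeR, 0 genes, with 780 at an unadjusted p under 0.05, 5.07%). Of the 125 medulla DEGs, 49 had such an unadjusted p, but they were chosen on the medulla values that enter this test. The test thus shows neither a difference nor an equal response in the 2 tissues. DESeq2 called 2 genes in that test and limma-voom 0. EGFLAM, at -0.81 in medulla and -0.28 in cortex, and OGDH, at 0.50 and 0.04, were thus not shown to differ between the tissues.

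Of the 37 genes chosen by rule for description, ACSBG1, EGFLAM, CIART, CFAP46 and CHI3L1 passed with any of the 15 medulla libraries left out. The calls of the others depended on single camels. Of the 37, 32 were lost without control 1, 6 without control 2, 32 without control 3, 18 without control 4, 29 without control 5, 3, 4, 2, 2 and 13 without dehydrated 1 to 5, 31 without rehydrated 1, 13 without rehydrated 2, 16 without rehydrated 3, 0 without rehydrated 4 and 25 without rehydrated 5. The 16 lost without rehydrated library 3 were TMEM132A, FBLN2, SAMD11, AGRN, VGF, PITPNM1, RNF207, TRAF2, RERGL, ANKRD37, USP2, TCOF1, ETFA, ECHS1, DVL1 and SAFB2, with adjusted p from 0.0557 to 0.186. None of the 37 changed direction under any alternative run, but they were chosen on these libraries and every run reused them, so a kept direction is no independent support. In the fit of the 10 libraries compared and in the fit with the replicate number as a block, 0 of the 37 passed.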

How the data were processed

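Poly(A)-selected RNA from kidney medulla and cortex of 15 camels was sequenced. The authors trimmed reads with BBDuk, aligned them to CamDro2 and deposited raw counts of read pairs per gene, made with featureCounts 1.6.2 on Ensembl release 100 by fragment with reverse strand, without normalization or pooling. Whether STAR (paper's methods) or Rsubread (names in the table's header) did the alignment is not settled. The submitters' processing notes name DESeq2 1.31.18.

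Groups came from the labels, all 30 columns were mapped and 0 were not. The counts were fitted here with edgeR 4.0.16 (limma 3.58.1, R 4.3.3): filterByExpr (minimum count 10, total 15), TMM, 1 fit of 30 libraries in 6 groups without covariates, quasi-likelihood tests, and p-values adjusted over 15376 genes by Benjamini-Hochberg, with DEGs at an adjusted p under 0.05. The biological coefficient of variation was 34.0%, so at 15780491 to 20005136 pairs per library compared the 5 camels, more than counting error, set the precision. The script was tested on simulated data.

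Members and gene lists were chosen with earlier results of these data known. Symbols came from the article's lists and text, and 1860 of the 1948 identifiers whose gene number is in the RefSeq table have the same symbol or synonym there. Named genes were, among DEGs with a symbol, the 8 highest and 8 lowest fold changes with a mean of at least 1 CPM in the 10 libraries and no overlap, all DEGs in the gene lists or also called in dehydration, and the 6 highest and 6 lowest (same CPM minimum) of those after rehydration only that differed from dehydration.

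The settings varied were the tool (DESeq2 1.42.0 or limma-voom), scaling by size factors of DESeq2 within edgeR, other filters (none, or a mean of at least 1 CPM), fewer libraries in the fit, the replicate number or animal as a block, RNA integrity number as a covariate, a length trend removed, an adjusted p under 0.01, each medulla library left out and, added after seeing the data, edgeR's earlier quasi-likelihood method. Proteins were not analysed here. No sequence is printed, since no genome was used here.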

Additional observations from a re-analysis of the deposited data

Results flagged for a closer look

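In 7 of 111 groups of 5 camels examined over the named genes, 1 camel lay far from the other 4 (gap over 0.71 of the group's range). About 1 in 20 groups of independent, normally distributed values would pass that cut-off. The genes here were chosen on their values and measured in the same camels, so 7 of 111 cannot be set against that rate. In rehydrated camels the outlying values were VGF in camel 3, at 7.63 CPM against a next highest of 1.14 CPM, and USP2 in camel 4, at 39.9 CPM against 25.8 CPM. In control camels they were CPSF6 in camel 4, at 43.5 CPM against 23.9 CPM, and TRAF2 in camel 4, at 8.58 CPM against 6.09 CPM. In dehydrated camels they were CFAP46 in camel 1, at 3.54 CPM, TMEM132A in camel 1, at 22.1 CPM, and DPYSL2 in camel 2, at 47.1 CPM, the last as the lowest value. CPSF6, TRAF2 and USP2 thus had a camel in or near the other group's range. The result for VGF without rehydrated library 3 stands in the report.

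Rehydrated and dehydrated camels lay on opposite sides of control, both past the threshold, in OGDH and ENSCDRG00005022079. The difference between them was tested and came to a log2 fold change of 0.96 in OGDH (adjusted p = 3.2e-05) and 2.47 in ENSCDRG00005022079 (adjusted p = 9.3e-06, edgeR's quasi-likelihood test). OGDH after rehydration lost its call against control in 8 of the 15 fits with a library left out, with log2 fold changes from 0.44 to 0.56.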

How the results depend on the processing

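The counts below are genes called after rehydration (125 as reported), those after rehydration only (106) and those also differing from dehydration (51). They were 9, 6 and 1 at an adjusted p under 0.01, 291, 246 and 100 with DESeq2, 40, 33 and 18 in a fit of the medulla libraries, and 34, 27 and 10 with edgeR's earlier quasi-likelihood method, which was chosen after seeing the data and whose 34 genes were all among the 125. The third count was 31 with limma-voom and 33 without a filter on low counts. The first count was 0 in a fit of the 10 libraries compared (2055 at an unadjusted p under 0.05), where the 37 named genes had adjusted p from 0.0796 to 0.191. With 1 library left out the 3 counts ranged over 10–380, 6–345 and 3–163. All other settings, apart from the replicate block given below, stayed within 1.5 times. The cortex count of 13 was 124 with DESeq2, 4 with limma-voom, 8 without a filter and 6 with the earlier method, and the count of genes differing between tissues was 2 with DESeq2 and 0 otherwise. The causes of these shifts were not tested. Fits with fewer libraries differ in the genes filtered, the scaling and the estimate of spread as well as in degrees of freedom. Of the 40 genes called in the fit of the medulla libraries, 26 were among the 125.

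With the replicate number as a block in the medulla libraries all 3 counts were 0 (2225 genes at an unadjusted p under 0.05), and the animal as a block between tissues left that test at 0 (715). The animals were taken from the labels, although the column names number rehydrated cortex and medulla differently. Camels of different groups share only a number: correlations of same-numbered control and rehydrated deviations were -0.12, 0.25, 0.55, 0.12 and 0.41, and 2 of the 5 matched best with their own number. DESeq2 kept all 36 named genes to which it gave an adjusted p, and gave none for VGF. Limma-voom lost 12 of the 37, the fit with a length trend removed 14, the medulla fit 27 and the earlier method 25. Depth limits genes such as VGF and RERGL, whose levels lay under 1 CPM in many libraries.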

Other observations

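Chromosome 22 of CamDro2 held 11 of the genes higher in rehydrated medulla, of 539 tested there (2.04%, against 0.611% of all genes), and none of the lower ones. The median log2 fold change over its tested genes was 0.19, against 0.01 over all genes. Library by library, the median difference from the control mean was 0.29, -0.03, 0.48, 0.06 and 0.17 in rehydrated camels 1 to 5 and ran from -0.12 to 0.08 in control camels, so rehydrated camels 2 and 4 lay within the control range. The chromosome was picked after the values were seen, and no test was run on it.

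SYNPO, an actin-associated protein of podocytes, was at 6.26–12.6 CPM in control and 11.7–23.3 CPM in rehydrated medulla, without passing the test, and its median in control cortex was 1.74 CPM. Every control medulla value thus lay above that median, so SYNPO was not read as a measure of podocytes.

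HBB, the beta-globin gene of red blood cells, was at 1.82–25.2 CPM in control and 0.650–12.0 CPM in rehydrated medulla, and the groups overlapped.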
